A study of Mus musculus with 6 samples.

Results

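The 9 genes described here encode the scaffolds of the tight junction plaque and the membrane proteins of the MARVEL family. They are Tjp1 (ZO-1), Tjp3 (ZO-3), Cgn (cingulin), Cgnl1 (paracingulin), Ocln (occludin), Marveld2 (tricellulin), Marveld3, Magi1 and Magi3. They are taken by name from the 19938 genes that have a probe set paired with exactly 1 gene symbol. Each of the 9 has 1 such probe set, so no choice between probe sets was needed.

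The messages of these genes were read in 6 mammary tumors, 3 of MMTV-PyMT mice with JAM-A (JAM-A+/+, tumors 5369, 5370 and 5393) and 3 of MMTV-PyMT JAM-A KO mice (JAM-A-/-, tumors 5333, 5346 and 5347), with 1 Affymetrix Mouse Gene 1.0 ST array per tumor. All 6 tumors carry the polyoma virus middle T oncogene, which the mammary tumor virus promoter switches on mainly in mammary epithelium, while JAM-A is missing from every cell of the null mice. The tumors were resected at an early stage of growth, with littermates as JAM-A+/+ controls according to the methods, and no source used here gives the strain or age of the mice. The tissue label of tumor 5347 does not mention the missing JAM-A, but its title and genotype do.

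Tight junctions seal the space between neighbouring epithelial cells. JAM-A, occludin and the claudins reach across the membrane, and their cytoplasmic tails bind the PDZ domains and other folds of plaque scaffolds. The ZO and MAGI proteins are such PDZ scaffolds, and cingulin and paracingulin link the plaque to actomyosin and to regulators of small GTPases. The MARVEL proteins are membrane proteins with several spans, and tricellulin gathers at the corners where more than a pair of cells meet. In mammary ducts these proteins mark the apical border of luminal cells. The comparison of genotypes asks whether the messages of the scaffolds differ in tumors that lack JAM-A, a membrane protein that binds some of them.

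The deposited values are on the log2 scale, so a difference of 1 is a doubling. The genotypes were compared by limma, whose linear models of the 35557 probe sets share information on the spread. Differences are JAM-A-/- minus JAM-A+/+, and the test was an adjusted p under 0.05 over all probe sets. A weaker pair of criteria, a fold change of at least 1.3 in either direction and an unadjusted p under 0.05, is counted beside it. Whether each tumor had its own mouse is not in the labels, so the p-values measure only the spread among these 6 tumors, which may be technical. Whole tumors were used, in which fewer cells of a type and less RNA per cell cannot be told apart.

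F11r, the gene of JAM-A, served as the check of the genotypes. It lay at 5.91, 5.55 and 6.53 in the JAM-A-/- tumors and at 10.10, 10.23 and 10.47 in the JAM-A+/+ tumors (log2 fold change -4.27, adjusted p = 0.00667 from limma), although that p was 0.453 with each probe set tested alone and between 0.0507 and 0.0839 without tumor 5333, 5369, 5370 or 5393. Of the 7 markers of luminal epithelium, 0 passed the test, and all 6 tumors expressed them at a mean level of 11.17 or more, as mammary epithelium does.

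None of the 9 tight junction genes differed between genotypes by the test. Their adjusted p-values from limma ran from 0.564 to 0.966, and 0.00281% of all probe sets passed the test, which is F11r alone. Of the 9, 0 had an unadjusted p under 0.05, as 8.16% of the 19938 genes did. Of the 9, 0 met the weaker criteria higher and 0 met them lower, where 4.73% and 0.592% of genes did. The groups overlapped for each of the 9 genes, while they did not overlap for 15% of genes. The log2 fold changes lay between -0.24 for Magi3 and 0.22 for Marveld3, with 4 genes above 0 and 5 below. Their median was -0.08, against 0.09 over all genes, of which 71.8% lay above 0, and it was 0.043 without tumor 5333. In the deposited values the 95% intervals spanned 0 for all 9 genes. None of them reached a halving or a doubling, and their outermost bounds were a fold of 0.664 (Ocln) and one of 1.52 (Cgnl1).

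**Figure D1:**
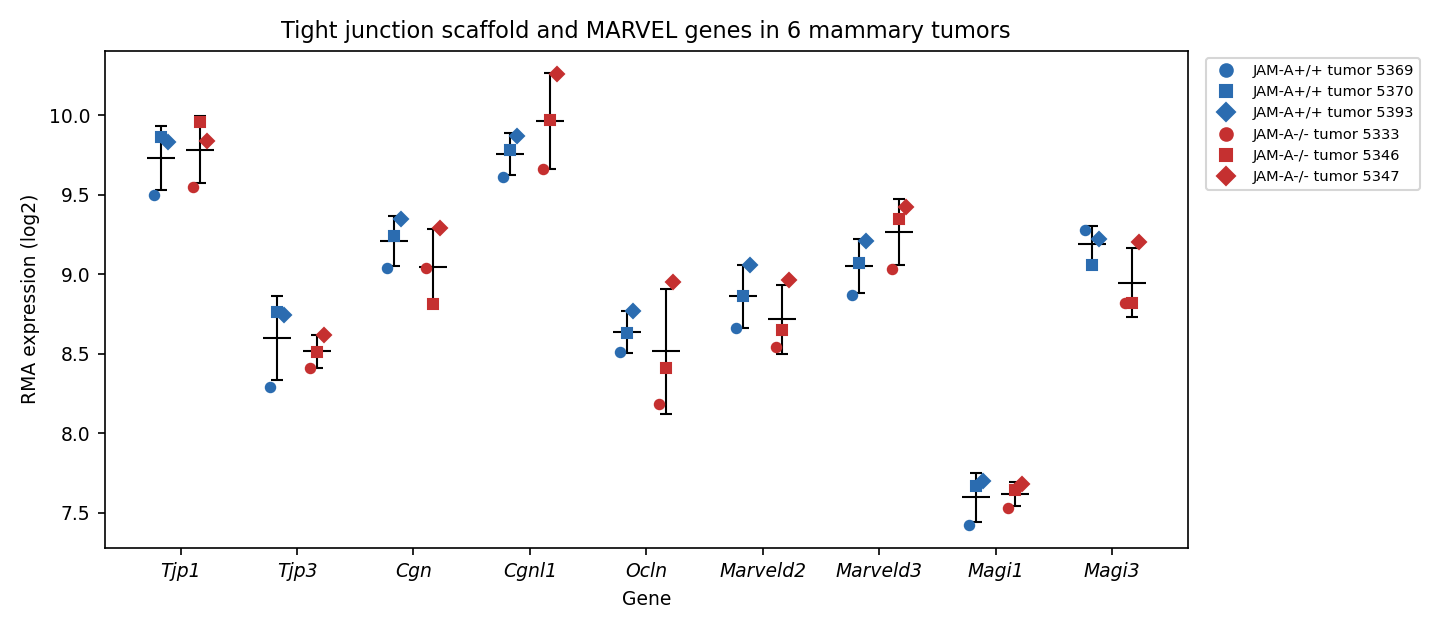
The 9 genes (horizontal axis) and their log2 RMA values (vertical axis), with 1 symbol per tumor, blue for the 3 JAM-A+/+ and red for the 3 JAM-A-/- tumors. Ticks mark the mean of a group and bars reach 1 SD to either side. The groups overlap for every gene, and Ocln spreads widest, from 8.18 to 8.95, with its highest and lowest value both in JAM-A-/- tumors. Heights of different genes are not comparable, because their probes differ.

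The ZO proteins are large scaffolds that hold the tails of claudins, occludin and JAM-A and tie them to actin. Tjp1 lay at 9.55, 9.96 and 9.84 in the JAM-A-/- tumors and at 9.50, 9.86 and 9.83 in the JAM-A+/+ tumors. Each group thus held 1 lower tumor, 5333 or 5369, and 2 higher ones at nearly the same level as in the other group. The means were 9.78 ± 0.21 and 9.73 ± 0.20 (SD, n = 3 each), a log2 fold change of 0.05 (95% interval -0.31 to 0.42, adjusted p = 0.919 from limma). Its sign turned under quantile normalization, to -0.13 both between all arrays and over the listed probe sets.

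Tjp3, the member of the family found mostly in epithelia, lay at 8.41, 8.51 and 8.62 in JAM-A-/- and at 8.29, 8.76 and 8.74 in JAM-A+/+ tumors. Tumor 5369 was lowest again, and the JAM-A-/- tumors lay between it and the other JAM-A+/+ tumors. The log2 fold change was -0.08 (95% interval -0.45 to 0.28, adjusted p = 0.865 from limma). It was between -0.24 (without tumor 5369) and -0.0017 (without tumor 5370) when 1 tumor was left out.

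Cingulin and paracingulin are related rod-shaped proteins of the plaque, and both recruit regulators of RhoA. Cgn lay at 9.04, 8.81 and 9.29 in JAM-A-/- and at 9.04, 9.24 and 9.35 in JAM-A+/+ tumors. Tumor 5346 was lowest, and the remaining JAM-A-/- tumors lay within the range of the JAM-A+/+ tumors. The means were 9.05 ± 0.24 and 9.21 ± 0.16 (SD, n = 3 each), a log2 fold change of -0.16 (95% interval -0.53 to 0.20, adjusted p = 0.718 from limma).

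Cgnl1 lay at 9.66, 9.97 and 10.26 in JAM-A-/- and at 9.61, 9.78 and 9.87 in JAM-A+/+ tumors. Here tumors 5346 and 5347 stood above all JAM-A+/+ tumors and tumor 5333 among them. The means were 9.96 ± 0.30 and 9.75 ± 0.13 (SD, n = 3 each), a log2 fold change of 0.21 (95% interval -0.19 to 0.61, adjusted p = 0.662 from limma). Without tumor 5333 it was 0.36 (adjusted p = 0.292 from limma), and the groups did not overlap, as for 37.5% of all genes. Without tumor 5347 it was 0.062, and it was 0.015 and 0.016 with the quantile normalizations.

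The start regions of Cgn and Cgnl1 are shown because the difference between their values did not overlap between genotypes, as given further on. The RefSeq windows of build GRCm38.p6 run from 250 bases before to 50 bases after the annotated start. That of Cgn is chr3:94786433-94786732 and that of Cgnl1 chr9:71771553-71771852, both on the minus strand and written 5′ to 3′. They hold 70.3% and 73.3% G and C, against a median of 52.7% over 32851 such windows. Capitals would mark the motifs CACCTG and ACCGGT on either strand, and neither window holds them.
Cgn: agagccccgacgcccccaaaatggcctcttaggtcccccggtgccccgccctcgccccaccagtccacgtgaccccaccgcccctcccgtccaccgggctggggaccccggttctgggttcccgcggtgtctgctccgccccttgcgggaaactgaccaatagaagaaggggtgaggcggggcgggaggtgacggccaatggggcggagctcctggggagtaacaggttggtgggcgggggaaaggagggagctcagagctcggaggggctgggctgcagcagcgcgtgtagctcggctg
Cgnl1: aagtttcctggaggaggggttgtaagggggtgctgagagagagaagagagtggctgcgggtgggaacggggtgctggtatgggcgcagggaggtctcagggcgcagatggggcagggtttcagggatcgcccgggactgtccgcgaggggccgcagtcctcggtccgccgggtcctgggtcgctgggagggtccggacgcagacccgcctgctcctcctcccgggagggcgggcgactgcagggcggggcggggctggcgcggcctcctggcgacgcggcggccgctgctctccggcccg

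Occludin, tricellulin and Marveld3 share the MARVEL domain. Ocln lay at 8.18, 8.41 and 8.95 in JAM-A-/- and at 8.51, 8.63 and 8.77 in JAM-A+/+ tumors. The JAM-A-/- tumors bracketed the others, with 5333 and 5346 below and 5347 above all JAM-A+/+ tumors. The SD was 0.40 in JAM-A-/- and 0.13 in JAM-A+/+ tumors (n = 3 each), and 84.8% of genes had a smaller range over the 6 tumors. The log2 fold change was -0.12 (95% interval -0.59 to 0.34, adjusted p = 0.842 from limma), and it was 0.04 without tumor 5333 and -0.34 without tumor 5347.

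Marveld2 lay at 8.54, 8.65 and 8.96 in JAM-A-/- and at 8.66, 8.86 and 9.06 in JAM-A+/+ tumors. Its order within each group was the same as that of Ocln, with 5333 and 5369 lowest and 5347 and 5393 highest. The log2 fold change was -0.14 (95% interval -0.52 to 0.23, adjusted p = 0.759 from limma).

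Marveld3 lay at 9.03, 9.35 and 9.42 in JAM-A-/- and at 8.87, 9.07 and 9.21 in JAM-A+/+ tumors. Tumors 5346 and 5347 stood above all JAM-A+/+ tumors, as for Cgnl1. The means were 9.27 ± 0.21 and 9.05 ± 0.17 (SD, n = 3 each), a log2 fold change of 0.22, the highest of the 9 genes (95% interval -0.14 to 0.57, adjusted p = 0.612 from limma). Without tumor 5333 it was 0.335 (adjusted p = 0.299 from limma), and the groups did not overlap, as for 37.5% of all genes. It was 0.004 once the mean of the luminal markers was subtracted on each array, a step that by its construction lowers every gene by 0.21.

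Ocln and Marveld2 are neighbours on chromosome 13 and are read from the same strand, and no protein-coding gene starts between them in the RefSeq table. Their start regions are shown because both hold the E-box CACCTG, a sequence that the Snail and Zeb repressors of epithelial genes are known to bind. The window shown for Ocln is chr13:100552669-100552968 and that for Marveld2 chr13:100616895-100617194 (GRCm38.p6, minus strand, written 5′ to 3′). The capitals mark the E-box, here as CAGGTG, the same letters read from the other strand. It begins at base 8 of the Ocln and base 17 of the Marveld2 transcript, counted from the annotated start as 1.
Ocln: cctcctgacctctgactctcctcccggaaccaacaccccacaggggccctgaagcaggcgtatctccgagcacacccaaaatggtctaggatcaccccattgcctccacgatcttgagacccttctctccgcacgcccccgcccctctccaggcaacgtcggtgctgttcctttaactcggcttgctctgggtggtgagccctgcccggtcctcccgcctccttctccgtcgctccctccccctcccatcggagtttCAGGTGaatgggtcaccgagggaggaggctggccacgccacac
Marveld2: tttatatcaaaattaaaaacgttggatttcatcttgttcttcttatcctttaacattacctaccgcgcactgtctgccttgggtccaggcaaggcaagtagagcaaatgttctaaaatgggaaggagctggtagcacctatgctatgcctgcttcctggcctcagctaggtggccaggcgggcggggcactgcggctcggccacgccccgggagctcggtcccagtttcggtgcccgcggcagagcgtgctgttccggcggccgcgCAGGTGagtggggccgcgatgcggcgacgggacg
The RefSeq table held 12 windows for 8 of the 9 genes and none was read for Marveld3. An E-box of these letters stood in at least 1 window of Ocln, Marveld2, Tjp3 and Magi1, and in no window of Tjp1, Cgn, Cgnl1 or Magi3. Over all windows of the same length 20.2% held it, and 22.6% of genes had it in at least 1 window. ACCGGT, the core of the motif of the grainyhead-like factors of epithelia, stood in 0 of the 12 windows and in 2.33% of all. The 4 genes with the E-box had log2 fold changes between -0.14 and 0.02, inside the range of the others. A match of letters is a description and not a measured binding site.

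The MAGI proteins are PDZ scaffolds that bind beta-catenin. Magi1 lay at 7.53, 7.64 and 7.68 in JAM-A-/- and at 7.42, 7.67 and 7.70 in JAM-A+/+ tumors. It was the steadiest of the 9 genes, with a range of 0.28 over all tumors, and its log2 fold change was 0.02 (95% interval -0.27 to 0.31, adjusted p = 0.966 from limma). That value turned its sign under quantile normalization and with array weights.

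Magi3 lay at 8.82, 8.82 and 9.20 in JAM-A-/- and at 9.28, 9.06 and 9.22 in JAM-A+/+ tumors. Tumors 5333 and 5346 were equal and below all JAM-A+/+ tumors, and tumor 5347 was within their range. The means were 8.95 ± 0.22 and 9.19 ± 0.11 (SD, n = 3 each), a log2 fold change of -0.24, the lowest of the 9 genes (95% interval -0.58 to 0.10, unadjusted p = 0.138 and adjusted p = 0.564 from limma). Magi3 was also the single gene of the 9 to meet the weaker criteria under any alternative. With quantile normalization between arrays it stood at -0.39, with that over the listed probe sets at -0.40, and after subtraction of the luminal markers at -0.45, each time lower without overlap of the groups, and its adjusted p from limma was then 0.376, 0.432 and 0.57. The share of genes that met the criteria lower was then 0.873%, 1.52% and 2.71%. The subtraction by its construction lowers every gene by 0.21. Across all alternatives Magi3 stayed below 0, between -0.45 and -0.18.

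**Figure D2:**
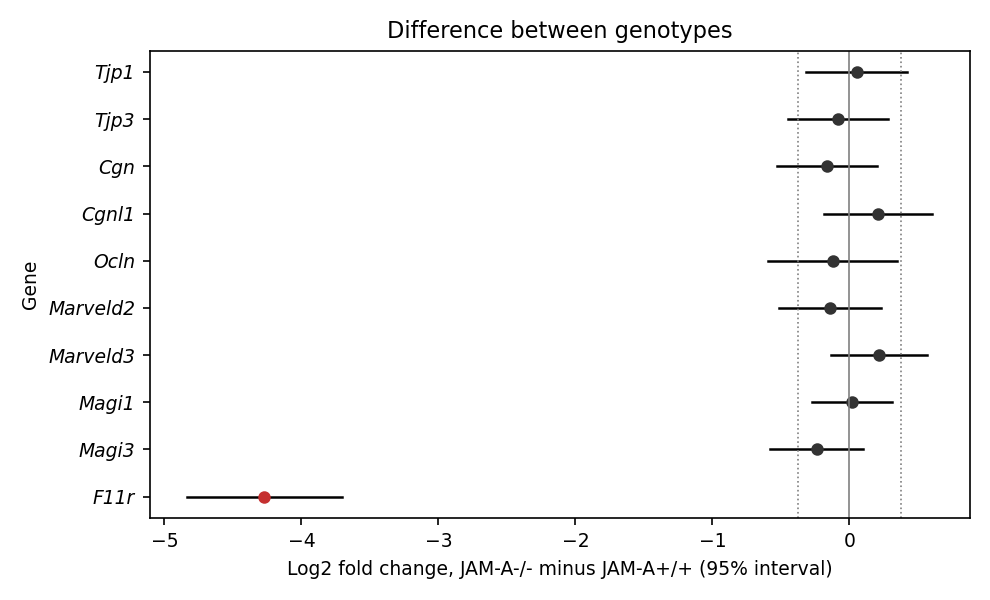
Log2 fold change, JAM-A-/- minus JAM-A+/+ (horizontal axis), of the 9 genes and of F11r (vertical axis). Points are limma estimates from 3 against 3 tumors, bars are their 95% intervals and dotted lines mark a fold of 1.3 in each direction. The 9 intervals all cross 0 and lie between -0.59 and 0.61, while F11r stands at -4.27.

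Tumors of the same genotype differed from each other in the level of the whole set. Against each gene's own mean over the 6 tumors, 9 of the 9 genes lay below it in tumor 5333 and 8 in tumor 5369, all but Magi3, whereas 0 did in tumors 5347 and 5393. The share of all genes below their own mean in each tumor was not counted. A shift of a whole array therefore cannot be told apart here from a shift of the 9 genes. The mean deviation of the 9 genes was -0.19, -0.04 and 0.19 in JAM-A-/- tumors 5333, 5346 and 5347 and -0.15, 0.05 and 0.14 in JAM-A+/+ tumors 5369, 5370 and 5393. Each genotype therefore held 1 tumor with low and 1 with high levels of the set. Tumor 5346 divided it, with Tjp1 at 0.20, Marveld3 at 0.19, Cgnl1 at 0.11 and Magi1 at 0.03 above their means, and Cgn at -0.32, Magi3 at -0.25, Ocln at -0.165, Marveld2 at -0.14 and Tjp3 at -0.045 from theirs.

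Tumors 5333 and 5369 were also below the mean, and tumor 5347 above it, in the markers of luminal, endothelial and fibroblast cells. Markers of macrophages, T cells, adipocytes and skeletal muscle had the same signs in these tumors. Basal markers were above the mean in tumor 5333, and basal and keratinocyte markers were below it in tumor 5347. Tumor 5393, high in the 9 genes, was near the mean or below it in the luminal, endothelial and fibroblast markers. The 7 luminal markers deviated by -0.19, 0.25 and 0.26 in tumors 5333, 5346 and 5347 and by -0.30, -0.02 and -0.01 in tumors 5369, 5370 and 5393. The 8 endothelial markers deviated by -0.09, 0.30 and 0.39 and by -0.53, 0.07 and -0.14 in the same order. The 7 fibroblast markers did so by -0.09, 0.10 and 0.42 and by -0.62, 0.17 and 0.006. The 6 basal markers did so by 0.06, 0.12 and -0.09 and by -0.17, 0.10 and -0.03. The 6 macrophage markers did so by -0.33, 0.17 and 0.35 and by -0.45, 0.25 and -0.002. The mean of the 5 keratinocyte markers was high in tumor 5346 alone, at 1.62, against -0.42 to -0.16 elsewhere. Among them Ivl, chosen for mention after its values were seen, was lowest in that tumor, at 4.19. Between genotypes the mean of the luminal markers differed by 0.21, that of the endothelial markers by 0.40 and that of the fibroblast markers by 0.29, all higher in JAM-A-/- tumors. Of these markers 0 passed the test. The weaker criteria were met higher by 2 endothelial, 2 fibroblast, 1 skeletal muscle and 0 luminal markers, where 4.73% of genes met them. Above 0 lay 8 of 8 endothelial, 6 of 7 luminal, 6 of 7 fibroblast and 5 of 6 basal markers. So did 6 of 6 macrophage, 6 of 6 skeletal muscle, 5 of 5 keratinocyte, 3 of 6 adipocyte and 2 of 6 T cell markers, and 71.8% of all genes. The means of the basal, macrophage, T cell, adipocyte and skeletal muscle markers differed by 0.06, 0.13, -0.04, 0.07 and 0.77. Adipocyte markers deviated by -1.14 in tumor 5369 and -0.56 in tumor 5333, and by 0.23 to 0.63 in the other tumors. The part of these cells in the values of the 9 genes was not tested. When the mean deviation of the luminal markers was subtracted on each array, 8 of the 9 genes lay below 0, with a median of -0.30 and no overlap of the groups for Tjp1, Cgn, Marveld2 and Magi3, and 0 passed the test. Of all genes 24.9% lay above 0 and 9.59% did not overlap under that setting. The subtraction itself lowers every gene by 0.21, the genotype difference of the markers, so that the median of all genes was then -0.12.

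**Figure D3:**
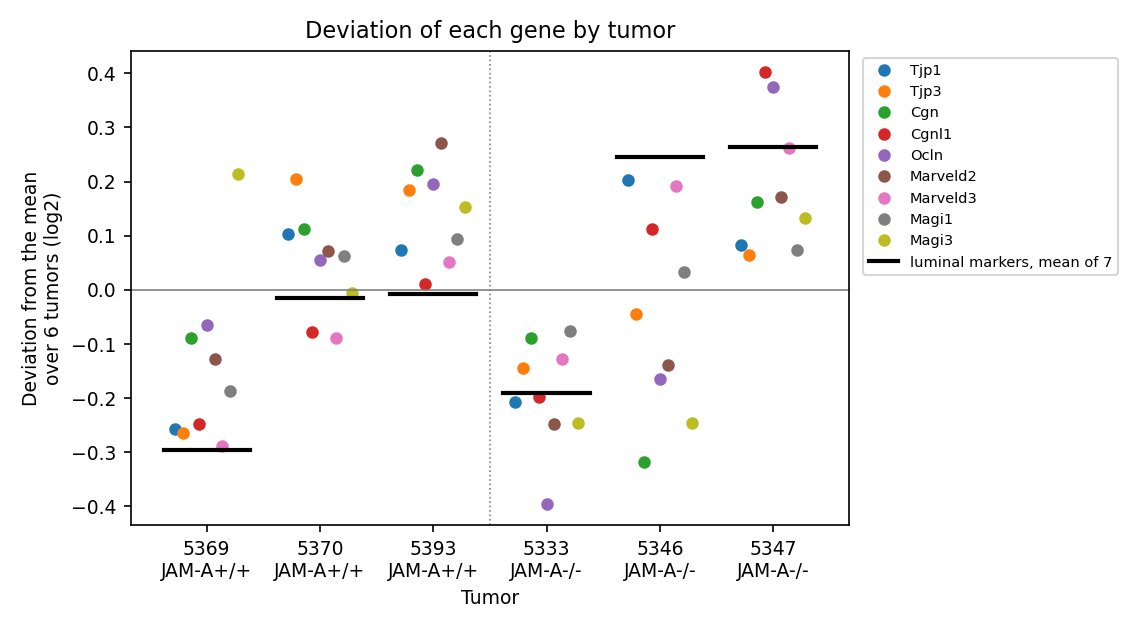
Deviation on the log2 scale (vertical axis) of each of the 9 genes (coloured points) from its own mean over the 6 tumors, by tumor (horizontal axis), with the mean of the 7 luminal markers as a black bar. All 9 points lie below 0 in tumor 5333 and all lie above it in tumors 5347 and 5393. In tumor 5346 the luminal bar is high at 0.25, and the 9 genes spread from -0.32 to 0.20.

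Between the genes, the likeness of profiles was measured as the root-mean-square difference of these deviations over the 6 tumors, as a description. The closest pair was Cgnl1 and Marveld3, which differed by 0.075 on the log2 scale. Tjp3 and Magi1 followed at 0.087, Tjp1 and Magi1 at 0.094, Cgn and Marveld2 at 0.103, and the neighbours Ocln and Marveld2 at 0.111. The farthest pair was Marveld3 and Magi3 at 0.286, and the relatives Cgn and Cgnl1 were at 0.245. No gene of the 9 ranged over as much as 1 on the log2 scale, so no other genes were sought for a profile like theirs.

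Related genes were then set against each other inside each tumor, which removes any change that both share on an array. Levels of different genes cannot be compared on arrays, but the difference of their log2 values can be compared between genotypes. The pairs were chosen with earlier results of these data known, and how often other gene pairs do not overlap was not counted. Cgn minus Cgnl1 was -0.62, -1.16 and -0.97 in JAM-A-/- and -0.57, -0.54 and -0.52 in JAM-A+/+ tumors. The groups did not overlap, although tumor 5333 lay within 0.05 of the JAM-A+/+ tumors. The means were -0.92 ± 0.27 and -0.54 ± 0.03 (SD, n = 3 each), so cingulin stood lower relative to paracingulin in JAM-A-/- tumors by 0.37 on the log2 scale (exact permutation test, two-sided, p = 0.1, adjusted p = 0.25 over the 5 pairs).

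Marveld3 minus Ocln was 0.85, 0.94 and 0.47 in JAM-A-/- and 0.36, 0.44 and 0.44 in JAM-A+/+ tumors. Again the groups did not overlap, with tumor 5347 within 0.03 of the nearest JAM-A+/+ tumors. The difference between genotypes was 0.34 (exact permutation test, two-sided, p = 0.1, adjusted p = 0.25). With 3 against 3 tumors p = 0.1 is the smallest value this exact test can give, so none of the 5 pairs could pass 0.05. Of the alternatives, only the 2 quantile normalizations could bring overlap, since 7 leave these differences as they are and leaving out a tumor cannot join separate groups. Cgn minus Cgnl1 had no overlap under either, at -0.33 and -0.34, whereas Marveld3 minus Ocln overlapped under quantile normalization between arrays, at 0.31. With 1 tumor left out the differences were -0.52 to -0.25 and 0.25 to 0.48.

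The other pairs overlapped in the deposited values. Tjp3 minus Tjp1 was -1.14, -1.45 and -1.22 in JAM-A-/- and -1.21, -1.10 and -1.09 in JAM-A+/+ tumors, a difference of -0.14 (exact permutation p = 0.2, adjusted p = 0.333). Magi3 minus Magi1 was 1.29, 1.18 and 1.52 in JAM-A-/- and 1.86, 1.39 and 1.52 in JAM-A+/+ tumors, a difference of -0.26 (exact permutation p = 0.3, adjusted p = 0.375). It did not overlap with quantile normalization between arrays, at -0.37, nor without tumor 5347 or 5370, and Tjp3 minus Tjp1 did not without tumor 5333 or 5369. Marveld2 minus Ocln was 0.36, 0.24 and 0.01 in JAM-A-/- and 0.15, 0.23 and 0.29 in JAM-A+/+ tumors, a difference of -0.02 (exact permutation p = 0.9, adjusted p = 0.9).

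**Figure D4:**
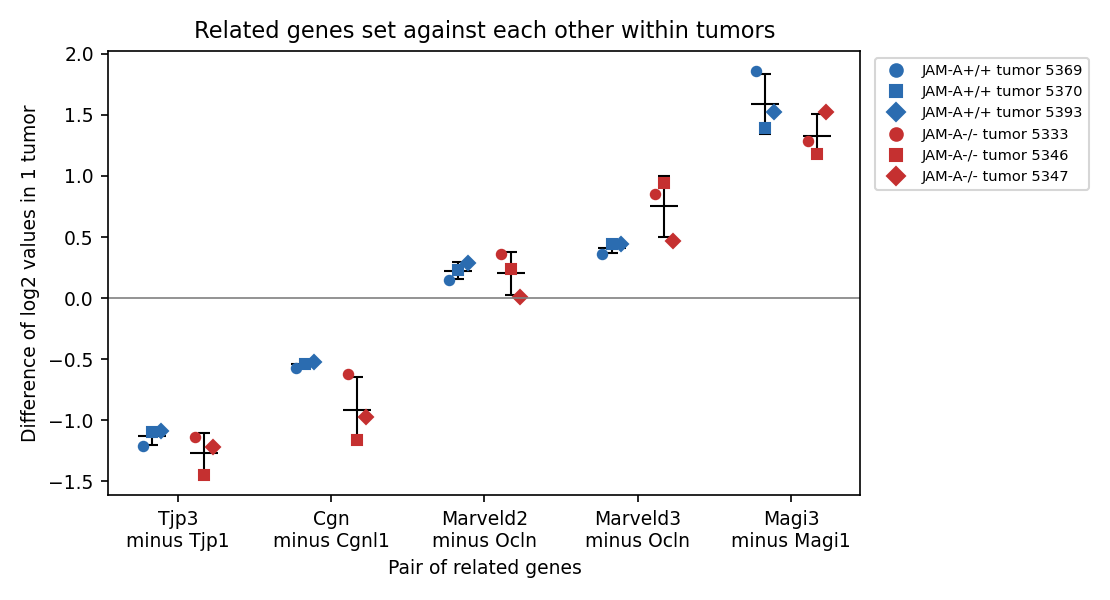
Difference between the log2 values of 2 related genes within 1 tumor (vertical axis) for 5 pairs (horizontal axis). Symbols are single tumors, blue for the 3 JAM-A+/+ and red for the 3 JAM-A-/- tumors, with ticks at the means and bars of 1 SD. The groups do not overlap for Cgn minus Cgnl1 and for Marveld3 minus Ocln, and the JAM-A+/+ tumors lie close together in both, with an SD of 0.03 and 0.05. How often the groups of other gene pairs do not overlap was not counted.

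Other genes around the same junctions were counted from lists of known function. Of 14 JAM and claudin genes, F11r alone passed the test, while Cldn10, a claudin, at 2.07 and Jam2, a relative of JAM-A, at 0.61 met the weaker criteria higher (adjusted p = 0.213 and 0.256 from limma). Of all genes 4.73% met these criteria higher. Of 16 measured plaque and polarity proteins beyond the 9, 0 passed the test and 0 met the weaker criteria, with a median log2 fold change of 0.003. The smallest p-values among them belonged to Tjap1 at 0.24 and the transcription factor Ybx3, a partner of ZO-1, at 0.40 (adjusted p = 0.495 and 0.502 from limma). The groups did not overlap for 2 of the 16, Tjap1 among them, and for 15% of all genes.

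Of 12 measured partners of cingulin in the control of RhoA and myosin, 0 passed the test and 2 met the weaker criteria higher, where 4.73% of all genes did. Myh10, a non-muscle myosin heavy chain, lay at 8.36, 8.49 and 8.07 in JAM-A-/- and at 7.49, 7.70 and 7.86 in JAM-A+/+ tumors. The groups did not overlap, as for 15% of all genes, and the log2 fold change was 0.62 (adjusted p = 0.296 from limma). Racgap1, a regulator of small GTPases that also acts in cell division, lay at 9.59, 9.51 and 9.33 in JAM-A-/- and at 8.39, 9.09 and 9.24 in JAM-A+/+ tumors. Its groups did not overlap either, and its log2 fold change was 0.57 (adjusted p = 0.432 from limma). Tumor 5369 was far the lowest, and the criteria for Racgap1 held under 8 of 15 alternative fits and those for Myh10 under 14. With a fold of at least 1.5, Myh10 met them and Racgap1 did not.

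Of 4 genes of tricellular junctions 0 met the criteria. Lsr, a receptor that brings tricellulin to the corners of cells, was at 0.29 and its relative Ildr1 at 0.16 (adjusted p = 0.515 and 0.605 from limma), and Ildr1 turned its sign under quantile normalization. Of 10 measured MAGI partners and related guanylate kinase scaffolds 0 met them either. Ctnnb1, which encodes beta-catenin, was at 0.36 without overlap of the groups (adjusted p = 0.43 from limma), and Mpp7 at -0.19 (adjusted p = 0.616 from limma). The groups did not overlap for Lsr either, and they did not for 15% of all genes. Ctnnb1 met the criteria higher under 4 of 15 alternatives and Mpp7 lower under 1.

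Of 12 transcription and splicing factors of epithelia, Grhl3 met the weaker criteria lower, where 0.592% of all genes did. The log2 fold change of Grhl3 was -0.57 (adjusted p = 0.334 from limma). It met the criteria under 15 of 15 alternative fits but not with a fold of at least 1.5 asked for, since it was 1.49-fold lower. Grhl3 lay at 5.79, 6.15 and 5.89 in JAM-A-/- and at 6.34, 6.42 and 6.79 in JAM-A+/+ tumors, without overlap, as for 15% of all genes. F11r read 5.91, 5.55 and 6.53 in the JAM-A-/- tumors, close to these values, and whether Grhl3 was detected is unknown. The probe set of Grhl3 was not among the 40% dimmest. Its relatives Grhl1 and Grhl2 were at 0.21 and 0.10 (adjusted p = 0.714 and 0.759 from limma), which were chosen for mention after their values were seen. Of 7 repressors of junction genes 0 met the criteria. Snai1 was at 0.38 and Twist2 at 0.22 (adjusted p = 0.495 and 0.581 from limma), and Snai1 met them higher under 3 of 15 alternatives. The groups of Twist2 did not overlap.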

How the data were processed

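RNA of 6 tumors was measured with 1 Affymetrix Mouse Gene 1.0 ST array each. The authors deposited log2 values made with RMA in Affymetrix Expression Console 1.1, per the labels' processing notes, rounded to 2 decimals. No source used here gives its settings. RMA normalizes probe intensities between arrays, so the values hold no total amount of RNA, and arrays give no read depth, so their number limits the precision. The platform annotation gives 1 symbol to 21789 of 35557 probe sets and more than 1 to 1621, and 12147 are not listed. Names were updated by gene identifier through the RefSeq table of GRCm38.p6. Genes with several probe sets were represented by the one with the highest mean. Groups came from the titles. Fits used limma 3.58.1 in R 4.3.3 (default empirical Bayes, no covariate, Benjamini-Hochberg over all probe sets) and were tested on simulated data. Related genes were compared by exact permutation of tumors in Python 3.11.15. Promoter windows came from the RefSeq table of GRCm38.p6. The alternatives were 2 quantile normalizations, median centring, subtraction of luminal markers, array weights, a variance prior that follows intensity and is robust, each probe set alone, leaving out the 40% dimmest probe sets, the mean of all probe sets of a gene, a fold of 1.5 and leaving out each tumor. The 9 genes, the lists and the pairs were chosen with earlier results of these data known. Genes named are the 9, F11r, and of each list of function up to 4 that met the criteria or else the 2 of smallest p, with genes beyond that rule marked. Cell type lists are given by their means and counts. Some listed genes, among them Magi2, Rock2 and the keratinocyte marker Flg, were not analysed here.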

Additional observations from a re-analysis of the deposited data

How the results depend on the processing

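None of the 9 genes passed the adjusted p under any alternative, and none met the criteria higher. The number meeting them lower went from 0 to 1 (Magi3) with both quantile normalizations and with subtraction of the luminal markers, under which 0.873%, 1.52% and 2.71% of genes met them lower. The number above 0 went from 4 to 2 with both quantile normalizations and to 1 with the subtraction, and was 2 to 5 with 1 tumor left out. Of all genes 66.4%, 50.6% and 24.9% lay above 0 in those settings, and 61.9% to 74.1% with 1 tumor left out. Genes of the 9 without overlap went from 0 to 3 with both quantile normalizations (Cgn, Marveld2 and Magi3) and to 4 with the subtraction, where 18.6%, 15.9% and 9.59% of genes did not overlap, and were 0 to 3 with 1 tumor left out (21.3% to 37.5% of genes). The 95% intervals of Cgn, Marveld2 and Magi3 lay below 0 with both quantile normalizations, where 9.54% and 9.8% of genes had an unadjusted p under 0.05 from limma. That of Magi3 did so with the subtraction and without tumor 5347, where 3.55% and 5.16% of genes had such a p. That of Cgnl1 lay above 0 without tumor 5333, where 14% had one. The median of the 9 genes was -0.19 and -0.21 with the quantile normalizations, -0.30 with the subtraction and -0.19 to 0.043 with 1 tumor left out, turning its sign without tumor 5333. The median of all genes was 0.0675 and 0.0022, -0.12, and 0.048 to 0.128 in the same order. Signs turned for Tjp1 (-0.13 with both quantile normalizations, -0.16 with the subtraction, -0.062 to 0.17 with 1 tumor left out), Magi1 (in the same order -0.018, -0.083, -0.19 and, with array weights, -0.0042, with -0.068 to 0.072 as 1 tumor was left out), Cgnl1 (-0.0029 with the subtraction), Ocln (-0.34 to 0.043 with 1 tumor left out), Marveld2 minus Ocln (-0.098 to 0.077 with 1 tumor left out) and, among other genes, Ildr1 (-0.016 and -0.021 with the quantile normalizations and -0.050 with the subtraction). Quantile normalization over listed probe sets moved the median of all of these from 0.087 to -0.005, relative to which the 9 genes stand. For the tricellular list the median was 0.020 and -0.030 with the quantile normalizations and -0.085 with the subtraction. The subtraction also gave -0.11 (JAM and claudin genes), -0.21 (other plaque proteins), -0.0079 (cingulin partners), -0.17 (MAGI partners), -0.078 (epithelial factors) and -0.060 (repressors). The quantile normalizations gave -0.0046 and -0.025 (JAM and claudin genes), -0.054 and -0.11 (other plaque proteins) and -0.059 and -0.10 (MAGI partners). For the epithelial factors they gave 0.021 and -0.029, while the cingulin partners and repressors stayed above 0. With 1 tumor left out the median of the MAGI partners was -0.018 (without tumor 5346) to 0.24 (without tumor 5333). The JAM and claudin genes past the adjusted p went from 1 to 0 with each probe set alone and were 0 to 1 with 1 tumor left out. Apart from the subtraction, whose construction lowers every gene by 0.21, the cause of these moves was not tested. The mean over all probe sets of a gene leaves the fold changes of the 9 genes as they are, since each has 1, and all 9 stay when the 40% dimmest are left out. No paired analysis was possible because the tumor numbers differ between the groups. Signal over background is not given in the deposited values, so whether a dim probe set was detected is unknown.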
